A study of Mus musculus with 6 samples.

Results

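The primary cilium is the single, non-motile antenna that most cells of cartilage carry, and 44 genes that build it, load it or guard its base were followed in condylar cartilage of the mouse jaw. The genes were chosen by symbol. They were all genes whose names begin with Ift and a number, all numbered Bbs and Nphp genes, Tctn1 to Tctn3, and 16 further genes of the ciliary motors, the transition zone and ciliary membrane transport. All 44 were present among the 24346 genes of the deposited tables, and all 44 reached 1 FPKM, a measure of fragments scaled to transcript length and library depth, in at least 3 of the 6 libraries, the filter used for testing. Condylar cartilage is the growth cartilage of the temporomandibular joint. It was taken from control mice labelled fl/fl, the usual notation for a floxed gene, and from mice labelled mutant, which the series title describes as carrying a deletion of Ihh, the gene for Indian hedgehog, specific to the neural crest of the face and skull. There were 3 control and 3 mutant libraries. The series text adds that Ihh, Cre and Tomato expression was examined in the mutant condyles. The Cre driver, the age and the sex of the mice are not given in the labels, and they do not tell whether each library is a different animal, so p-values measure only how far these 6 samples scatter, some of which may be technical.

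A cilium is built and maintained by intraflagellar transport (IFT), in which trains of IFT-B and IFT-A complexes are carried outward along the ciliary microtubules by a kinesin motor and back by a ciliary dynein. The BBSome, a coat-like complex named after Bardet-Biedl syndrome, rides on these trains and moves membrane proteins, and the transition zone at the base controls which proteins enter and leave. Hedgehog signalling in vertebrates runs through the cilium: the receptor Ptch1 and the transducer Smo exchange places there, and the Gli factors are processed there. Loss of cilia in mouse cartilage disturbs the growth plate.

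Ihh itself measured 3.73, 2.51 and 3.74 FPKM in the fl/fl libraries 1, 2 and 3, against 2.18, 2.33 and 2.66 FPKM in mutants 1, 2 and 3. The groups overlapped and the difference did not pass the test (limma adjusted p = 0.724). The labels do not say which stretch of Ihh is deleted, and a value over the whole gene in tissue that may hold cells outside the neural crest does not check the deletion. Gli1, a direct target of the pathway, measured 7.10 to 9.53 FPKM in controls and 0.168 to 0.807 FPKM in mutants. Xist was at 29.5 and 29.2 FPKM in controls 1 and 2 and at no more than 0.984 FPKM in the other 4 libraries, and Eif2s3y, a Y-linked gene, was at 38.4 to 47.4 FPKM in those 4 and at no more than 0.89 FPKM in controls 1 and 2, which makes sex unbalanced across genotypes. The markers of chondrocytes were present, with 12 of 12 measured ones tested, but their summed level of 217 to 547 FPKM over the 6 libraries stood beside a summed level of 5216 to 37480 FPKM for 24 skeletal muscle markers.

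The levels of the cilium genes were mostly typical of the genes tested. Their mean over the 6 libraries ranged from 1.11 FPKM for Nphp4 to 93.7 FPKM for Ift20, with a median of 6.67 FPKM, beside a median of 6.80 FPKM over all 18715 genes tested. Ift20, an IFT-B subunit found at the Golgi as well as in the cilium, measured 79.7, 96.7 and 133 FPKM in the fl/fl libraries 1, 2 and 3, against 102, 90.7 and 60.0 FPKM in mutants 1, 2 and 3. It stood above every other cilium gene in every library. The next levels were close to each other. Ift27, a small GTPase of IFT-B, measured 37.1, 31.3 and 46.0 FPKM in the fl/fl libraries, against 24.2, 35.9 and 31.1 FPKM in mutants. Ift43, a peripheral subunit of IFT-A, measured 31.3, 38.5 and 47.8 FPKM in the fl/fl libraries, against 25.8, 42.4 and 19.8 FPKM in mutants, so that the order of these 2 genes was within their spread. Tmem216, a membrane protein of the transition zone, measured 29.7, 21.4 and 33.7 FPKM in the fl/fl libraries, against 22.1, 17.7 and 29.8 FPKM in mutants, and the IFT-B subunit Ift52 measured 25.1, 20.1 and 20.2 FPKM in the fl/fl libraries, against 16.7, 24.8 and 20.0 FPKM in mutants. In each of these 5 genes the groups overlapped.

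**Figure D1:**
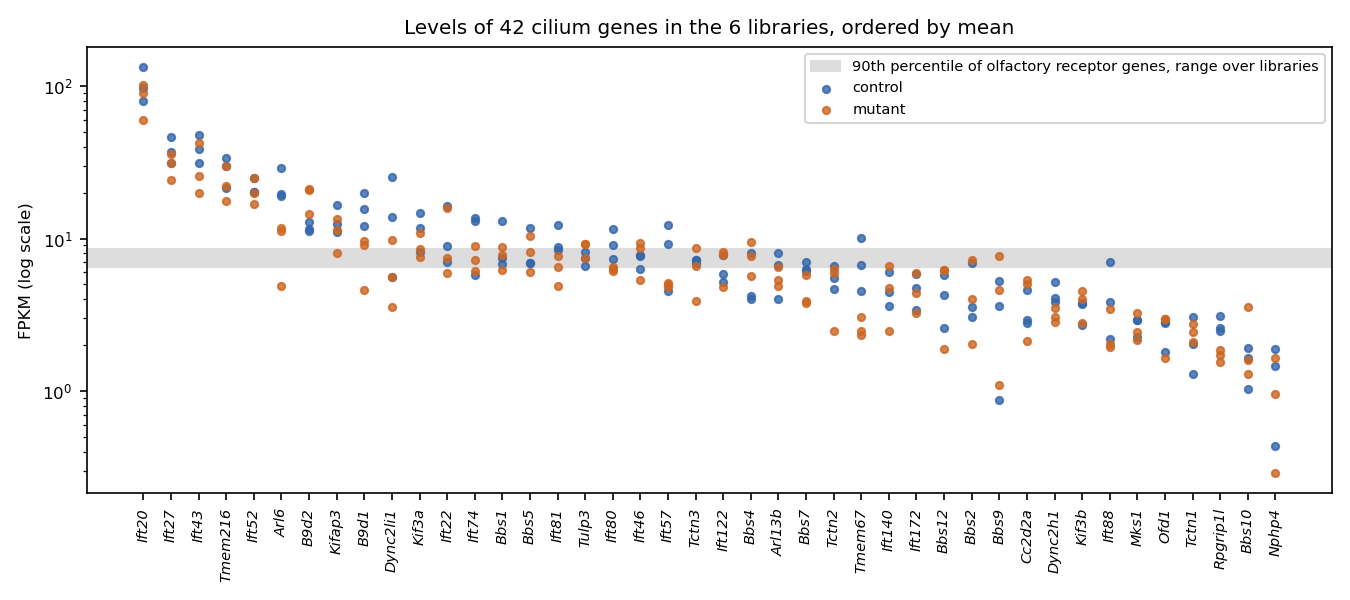
FPKM of 42 cilium genes on a log axis, ordered by their mean, with controls in blue and mutants in orange, 1 point per library. The grey band spans 6.49 to 8.58 FPKM, the range over libraries of the 90th percentile of 1102 olfactory receptor genes; Ift20 stands above all others, and most genes lie in or under the band.

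Olfactory receptor genes, largely silent outside the nose, gave a scale for these levels. From 39.1% to 42.6% of them reached 1 FPKM in a library, so reaching 1 FPKM does not by itself mark expression. Their 90th percentile lay between 6.49 and 8.58 FPKM in the 6 libraries. Of the cilium genes, 7 stood above that percentile in all 6 libraries (Ift20, Ift27, Ift43, Ift52, Tmem216, Kif3a and B9d2), 20 in some libraries and 17 in none. FPKM divides by transcript length, so a place under the percentile does not mean few fragments. Many fragments likewise do not place a gene above that percentile. Dync2h1 (longest transcript 14264 bases) was above it in none, on 60 to 137 fragments per library, recovered as described below. B9d2 (1021 bases) was above it in all 6, on 13 to 29 fragments. Longer transcripts had lower FPKM among the cilium genes. The Spearman correlation of the longest annotated transcript with the mean FPKM was -0.657 over the 44 genes, against -0.0619 over 17971 tested genes with an annotated length. These points come from the same 6 libraries, and the correlation is given as a description.

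The spacing of the FPKM values allowed whole numbers of fragments to be recovered for 36 of the 44 genes. These are the smallest numbers that fit, so that true numbers may be larger multiples of them. They ran from 2 to 151 fragments per gene and library with a median of 25, and 30 of 216 such numbers were under 10. Ift20 rested on 68, 82 and 151 fragments in controls 1, 2 and 3, against 87, 93 and 54 in mutants 1, 2 and 3. B9d1 had 13, 10 and 22 over the controls and 8, 9 and 4 over the mutants. Set against annotated transcript lengths, such numbers implied a scaling total of about 1320000 fragments in control 1 (median over 1173 genes with 1 annotated transcript, quartiles 1270000 and 1360000) and of about 1320000 to 1760000 in the other libraries, so that 1 FPKM of a 2000-base transcript stood for about 2.6 fragments in control 1. Whether this scaling total is the number of mapped fragments is not known. With the smallest numbers taken as they stand, the variance of the scaled fragments within a group was a median of 2.08 times the counting variance in controls and 1.75 times in mutants.

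Mutant libraries were set against control libraries to ask whether transcripts of the cilium differed between the labelled genotypes. None of the 44 genes passed the test (limma, Benjamini-Hochberg adjusted p below 0.05 over all genes tested), where 1.24% of all 18715 genes passed, 0.775% higher and 0.465% lower in mutants. The lowest adjusted p was 0.116, for Arl6. At an unadjusted p below 0.05 there were 5 cilium genes, 4 lower and 1 higher in mutants, which is 11.4% of them, beside 14.1% of all genes tested (6.11% lower and 7.94% higher). In 10 of the 44 genes (22.7%) all 3 mutant values were outside the range of the 3 controls on one side, against 19.2% of all genes tested, a share near that background. Of these 10, 9 were lower in mutants (20.5%, against 9.4% of all genes tested) and 1 was higher (2.27%, against 9.77%).

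More of the differences pointed down than up, without passing the test. The difference of mean log2(FPKM + 1), mutant minus control and called the log2 fold change here, was negative for 32 of the 44 genes (72.7%, against 49.9% of all genes tested), with a median of -0.20 beside a median of 0.00085 over all genes tested and a range from -1.25 to 0.60. With 1 library left out that median ran from -0.156 (without control 3) to -0.318 (without mutant 3). The genes share the 6 libraries and are not independent replicates. The summed FPKM of the 44 genes was 466 to 585 in controls and 402 to 432 in mutants, where Ift20 alone gave 60.0 to 133. In bulk tissue, fewer ciliated cells and less RNA per cell cannot be told apart. The 95% interval of the log2 fold change lay within 1 log2 unit of 0 on each side for 21 genes, reached below -1 for 19 and above 1 for 5, so that in those genes a difference of that size lies within the interval.

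**Figure D2:**
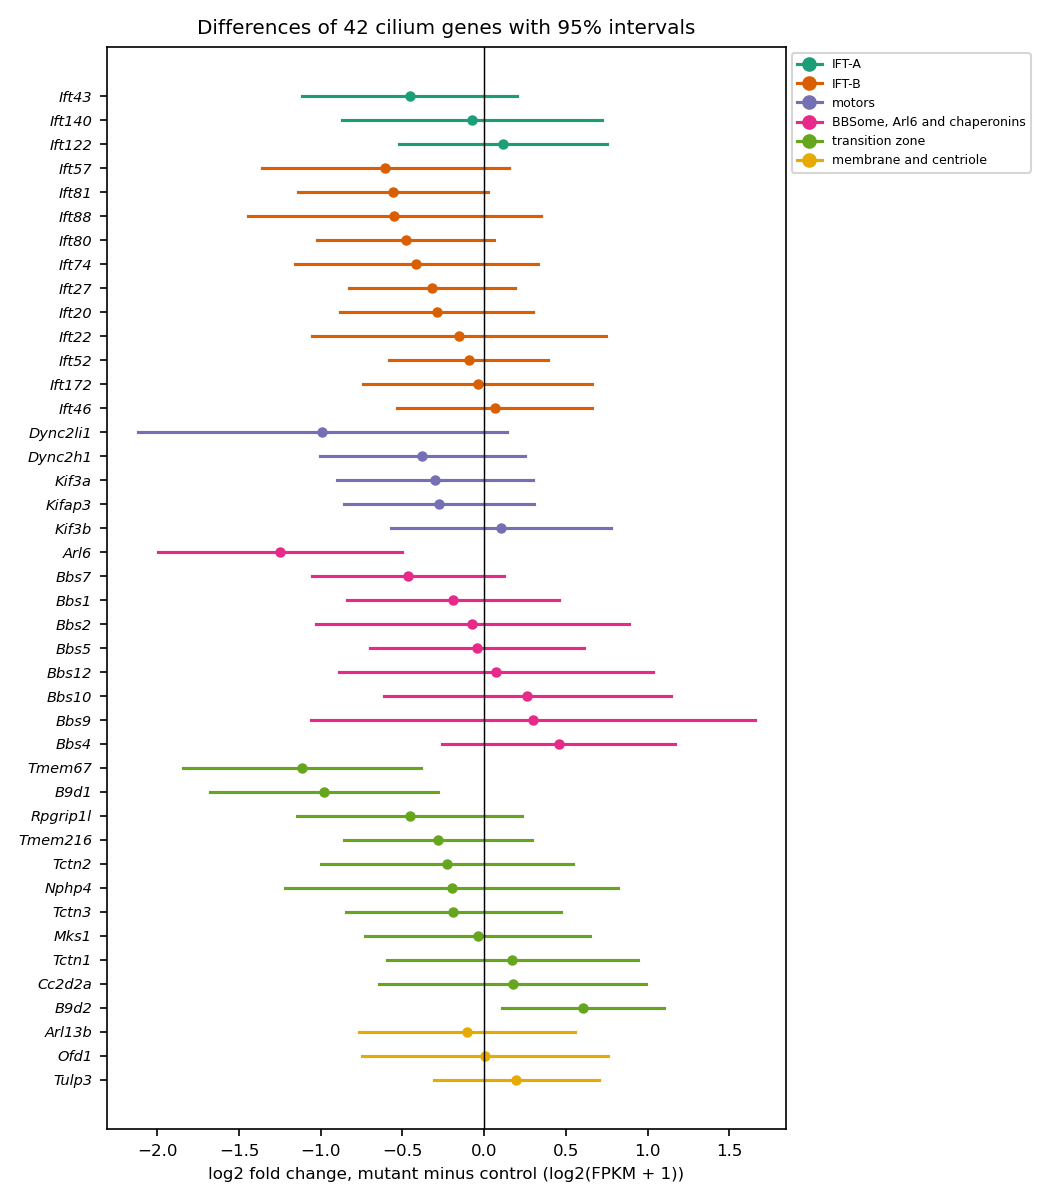
Log2 fold change of each of 42 cilium genes, mutant minus control on the scale of log2(FPKM + 1), as points with 95% intervals from the limma fit, coloured by role and sorted within a role. The intervals of Arl6, Tmem67 and B9d1 lie under 0 and that of B9d2 lies above it; none of these 4 passed the adjusted threshold.

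The BBSome and the proteins that place it held the gene with the smallest p. Arl6, the small GTPase that recruits the BBSome to membranes and is itself a Bardet-Biedl syndrome gene, measured 19.4, 28.8 and 19.1 FPKM in the fl/fl libraries 1, 2 and 3, against 4.87, 11.7 and 11.3 FPKM in mutants 1, 2 and 3. All mutants were below all controls, with mutant 1 lowest. Its mean was 22.4 ± 5.52 FPKM in controls and 9.28 ± 3.82 FPKM in mutants (SD, n = 3 per group; log2 fold change -1.25 ± 0.33 SE, limma adjusted p = 0.116, and 0.0693 to 0.934 under the alternatives). With the muscle marker mean as a covariate its log2 fold change was -0.43 ± 0.67 SE (limma adjusted p = 0.934). That mean of log2(FPKM + 1) was 5.56 to 6.59 in controls and 7.08 to 7.75 in mutants. The covariate thus did not overlap between the groups, and this fit cannot separate it from genotype. It rested on 136 fragments in controls and 57 in mutants, a scaled ratio of 0.428 with an exact 95% interval from 0.309 to 0.588 that covers counting error only. Arl6 occupies chr16:59612949-59639391 of mm10, minus strand, and its exons overlap the gene 4930547E14Rik on the opposite strand, whose reads these libraries do not separate. Such an overlap on the opposite strand is annotated for 10 of the cilium genes, Arl6 included, and the same limit holds for each. Among them are Tmem67, Tmem216 (with Cpsf7), Bbs4 (with Adpgk), Ift57, Ift88, Tctn1, Bbs12 and Ofd1.

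The BBSome subunits themselves had fold changes of both signs. Bbs7, of the BBSome core, measured 6.99, 6.15 and 6.34 FPKM in the fl/fl libraries, against 3.79, 3.88 and 5.80 FPKM in mutants, lower in all mutants (log2 fold change -0.47 ± 0.26, limma adjusted p = 0.496). Bbs4, which binds the BBSome to centriolar satellites, measured 4.03 to 8.05 FPKM in controls and 5.65 to 9.55 FPKM in mutants, with overlap (log2 fold change 0.46 ± 0.32, limma adjusted p = 0.620). Bbs9, a scaffold subunit, varied most within a group, from 0.877 to 5.30 FPKM in controls and from 1.10 to 7.69 FPKM in mutants. The log2 fold changes of Bbs1, Bbs2, Bbs5 and the chaperonin-like assembly factors Bbs10 and Bbs12 ran from -0.19 to 0.26 (adjusted p 0.841 to 0.972). Over all 9 genes 5 were negative (median -0.04).

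The transition zone held 4 of the 5 genes at an unadjusted p below 0.05, which is 33.3% of its 12 genes beside 14.1% of all genes tested, and they did not all point the same way. None of the 12 passed the test. Tmem67, the membrane receptor meckelin, measured 10.1, 6.69 and 4.55 FPKM in the fl/fl libraries, against 2.46, 2.32 and 3.05 FPKM in mutants, without overlap (log2 fold change -1.12 ± 0.32, limma adjusted p = 0.144). Control 3, the control without Xist, was the lowest control. Exons of Tmem67 overlap the genes Rbm12b2 and Gm11842 on the opposite strand, whose reads these libraries do not separate.

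B9d1 and B9d2 encode paired B9-domain proteins that join Mks1 in one complex of the transition zone, and their fold changes had opposite signs. B9d1 measured 15.7, 12.1 and 19.9 FPKM in the fl/fl libraries, against 9.66, 9.04 and 4.58 FPKM in mutants, lower in all mutants (log2 fold change -0.98 ± 0.31, limma adjusted p = 0.179). B9d2 measured 12.8, 11.2 and 11.6 FPKM in the fl/fl libraries, against 14.6, 20.7 and 21.1 FPKM in mutants, higher in all mutants (log2 fold change 0.60 ± 0.22, limma adjusted p = 0.244). The level of B9d1 per level of B9d2 was 1.22, 1.08 and 1.72 in controls 1, 2 and 3, against 0.663, 0.437 and 0.217 in mutants 1, 2 and 3, a pair singled out after its values were seen and so given without a test. The fragment ratios were 0.477 for B9d1 (45 and 21 fragments, exact 95% interval from 0.270 to 0.817) and 1.6 for B9d2 (46 and 72 fragments, from 1.09 to 2.37). Mks1 measured 2.27 to 2.91 FPKM in controls and 2.15 to 3.23 FPKM in mutants, with overlap. B9d1 occupies chr11:61505144-61512931 and B9d2 chr7:25680780-25686558 of mm10, both plus strand, and neither has an exon that overlaps another annotated gene.

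**Figure D3:**
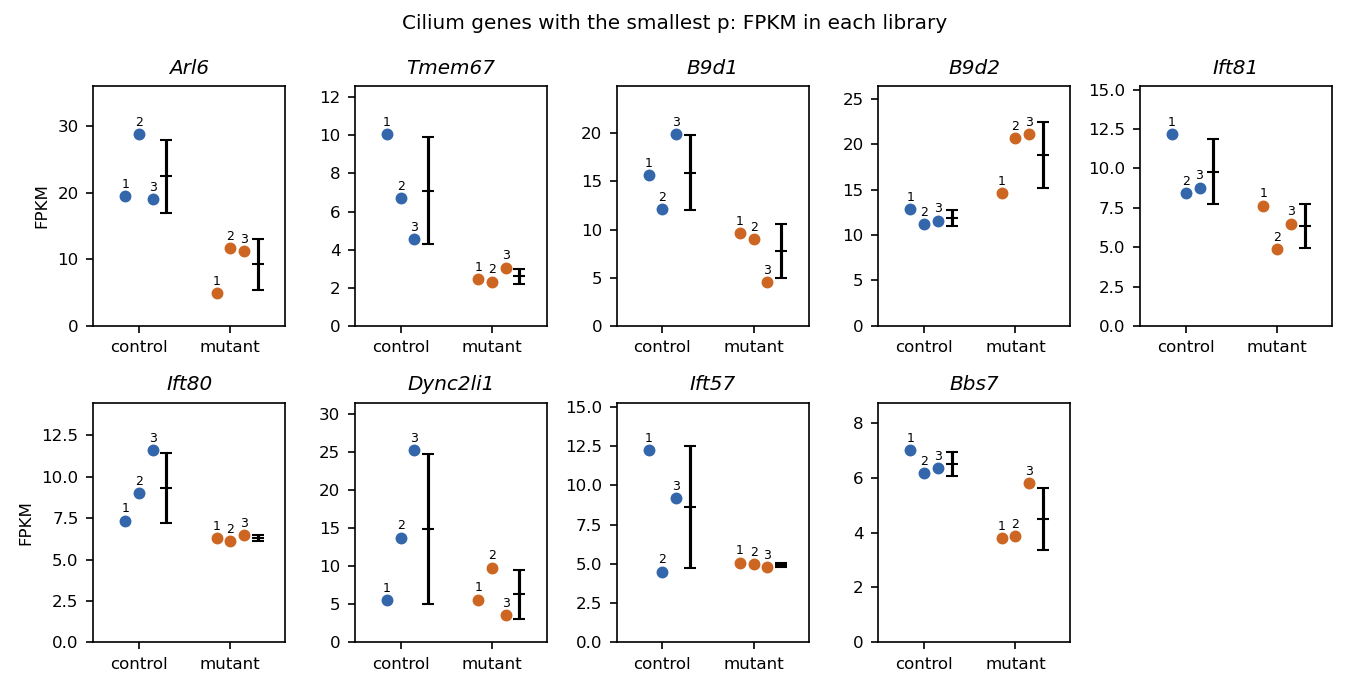
FPKM in each library, numbered by replicate, for 9 of the 10 cilium genes with the smallest p, with controls in blue, mutants in orange and the mean ± SD (n = 3) in black; each axis starts at 0. The groups do not overlap in Arl6, Tmem67, B9d1, B9d2, Ift81, Ift80 and Bbs7, and they overlap in Dync2li1 and Ift57.

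The remaining 8 genes of the transition zone had smaller differences. Rpgrip1l, a scaffold on which the transition zone is assembled, measured 2.47 to 3.09 FPKM in controls and 1.55 to 1.85 FPKM in mutants, without overlap (log2 fold change -0.46 ± 0.30, limma adjusted p = 0.601). The tectonic genes Tctn1, Tctn2 and Tctn3, the coiled-coil gene Cc2d2a, Nphp4, Tmem216 and Mks1 had log2 fold changes from -0.28 to 0.17. Over the 12 genes 9 were negative, with a median of -0.21. With 1 library left out that median ran from -0.162 (without control 3) to -0.43 (without mutant 3). It was -0.478 with the muscle marker mean as a covariate, a fit that cannot separate this mean from genotype.

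Several of these genes carry in their promoters a form of the X-box, the site bound by the RFX factors that switch on ciliary genes in animals from worm to mouse. The letters GTTNCC and AAC with any 5 bases between them, searched on both strands of the 300 bases from 250 before to 50 after each RefSeq start (GRCm38.p6), were present for 6 of the 37 cilium genes with a promoter in the RefSeq table (16.2%) and for 1.56% of all 27025 symbols in it. A wider form, GTNNCC and AAC with any 5 bases between them, which contains the stricter one, was present for 13 of the 37 (35.1%) and for 4.48% of all symbols. The 6 stricter matches are printed because they include B9d1 and B9d2, whose fold changes had opposite signs. Capitals mark the match, and each stretch reads 5′ to 3′ on the strand of its gene; in Ift140 the letters lie on the opposite strand.
B9d1 (chr11:61505130-61505159, plus strand): taccgtctGTTTCCAAGACAACcgagagcc
B9d2 (chr7:25680788-25680817, plus strand): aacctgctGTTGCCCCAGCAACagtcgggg
Mks1 (chr11:87853183-87853212, plus strand): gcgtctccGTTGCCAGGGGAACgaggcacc
Tctn1 (chr5:122264411-122264432, minus strand): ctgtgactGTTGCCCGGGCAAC
Bbs7 (chr3:36613489-36613518, minus strand): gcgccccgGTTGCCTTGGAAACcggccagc
Ift140 (chr17:25015961-25015990, plus strand): tggggcgtGTTGTGACGGCAACctcgcgcc
The match of B9d1 began 6 bases before its start and that of B9d2 at base 17 after it. The median log2 fold change was -0.19 over the 13 genes with the wider form and -0.10 over the 24 genes in the table without it. A match is a string of letters and not a measured binding site.

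The RFX genes themselves were low, and none of the 7 tested passed. Rfx5, better known for its part in the expression of MHC class II genes, measured 6.12, 3.52 and 9.19 FPKM in the fl/fl libraries, against 2.28, 2.33 and 3.65 FPKM in mutants, where mutant 3 exceeded control 2 (log2 fold change -0.90 ± 0.36, limma adjusted p = 0.296). Rfx3, which is needed for cilia in several mouse tissues, measured 3.45 to 5.92 FPKM in controls and 3.94 to 6.63 FPKM in mutants. The log2 fold changes of Rfx1, Rfx2, Rfx3, Rfx4, Rfx7 and Rfx8 lay between -0.03 and 0.55, and Rfx6, at a mean of 0.498 FPKM, was not tested.

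Among the 11 genes of IFT-B, which carries anterograde cargo, 10 were negative in log2 fold change, the median being -0.32 and adjusted p from 0.378 to 0.975. Ift81, which binds tubulin together with Ift74, measured 12.2, 8.43 and 8.77 FPKM in the fl/fl libraries 1, 2 and 3, against 7.62, 4.86 and 6.498 FPKM in mutants 1, 2 and 3. Its groups did not overlap (log2 fold change -0.56 ± 0.26, limma adjusted p = 0.378), and its 127 and 80 fragments gave a ratio of 0.644 (exact 95% interval from 0.480 to 0.858). Ift80, whose loss in humans gives a skeletal dysplasia with a narrow chest, measured 7.35, 9.02 and 11.6 FPKM in the fl/fl libraries, against 6.28, 6.12 and 6.46 FPKM in mutants. The mutants were nearly level and all below the controls (log2 fold change -0.48 ± 0.24, limma adjusted p = 0.431). Ift57 measured 12.2, 4.50 and 9.19 FPKM in the fl/fl libraries, against 5.08, 4.97 and 4.81 FPKM in mutants, so that control 2 lay under all 3 mutants. Ift88, the gene mutated in the Oak Ridge polycystic kidney mouse, showed a like spread, from 2.19 to 7.03 FPKM in controls and from 1.94 to 3.45 FPKM in mutants (log2 fold change -0.55 ± 0.40, limma adjusted p = 0.639). The log2 fold changes of Ift172, Ift20, Ift22, Ift27, Ift46, Ift52 and Ift74 lay between -0.42 and 0.06.

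IFT-A, which carries retrograde cargo and admits membrane proteins, was measured by 3 genes in which the groups overlapped. Ift43 had a log2 fold change of -0.46 ± 0.29 (limma adjusted p = 0.579), Ift140 of -0.07 ± 0.35 and Ift122 of 0.12 ± 0.28. The tubby-like adaptor Tulp3, which works with IFT-A, measured 6.59 to 8.18 FPKM in controls and 7.50 to 9.24 FPKM in mutants. Arl13b, the GTPase of the ciliary membrane, measured 4.01 to 8.04 FPKM in controls and 4.89 to 6.52 FPKM in mutants. Ofd1, a distal centriole protein, also overlapped between groups, with a log2 fold change of 0.0043.

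Of the 5 motor genes 1 was without overlap (20%, against 19.2% of all genes tested, a share near that background), and 1 had a wide spread. Dync2h1, the heavy chain of the ciliary dynein, measured 4.09, 3.82 and 5.20 FPKM in the fl/fl libraries, against 3.04, 2.82 and 3.50 FPKM in mutants, lower in all mutants (log2 fold change -0.38 ± 0.28, limma adjusted p = 0.643), with a fragment ratio of 0.697 (293 and 200 fragments, exact 95% interval from 0.5798 to 0.8377). Its light intermediate chain Dync2li1 measured 5.60, 13.8 and 25.2 FPKM in the fl/fl libraries, against 5.61, 9.83 and 3.54 FPKM in mutants, so that controls 1 to 3 alone spanned most of the range (log2 fold change -0.99 ± 0.50, limma adjusted p = 0.437). Kif3a and Kif3b, the motor subunits of the anterograde kinesin, measured 8.21 to 14.7 and 2.71 to 3.76 FPKM in controls and 7.54 to 10.9 and 2.78 to 4.50 FPKM in mutants. Their partner Kifap3 measured 11.1 to 16.5 FPKM in controls and 8.02 to 13.4 FPKM in mutants, and in all 3 kinesin genes the groups overlapped.

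**Figure D4:**
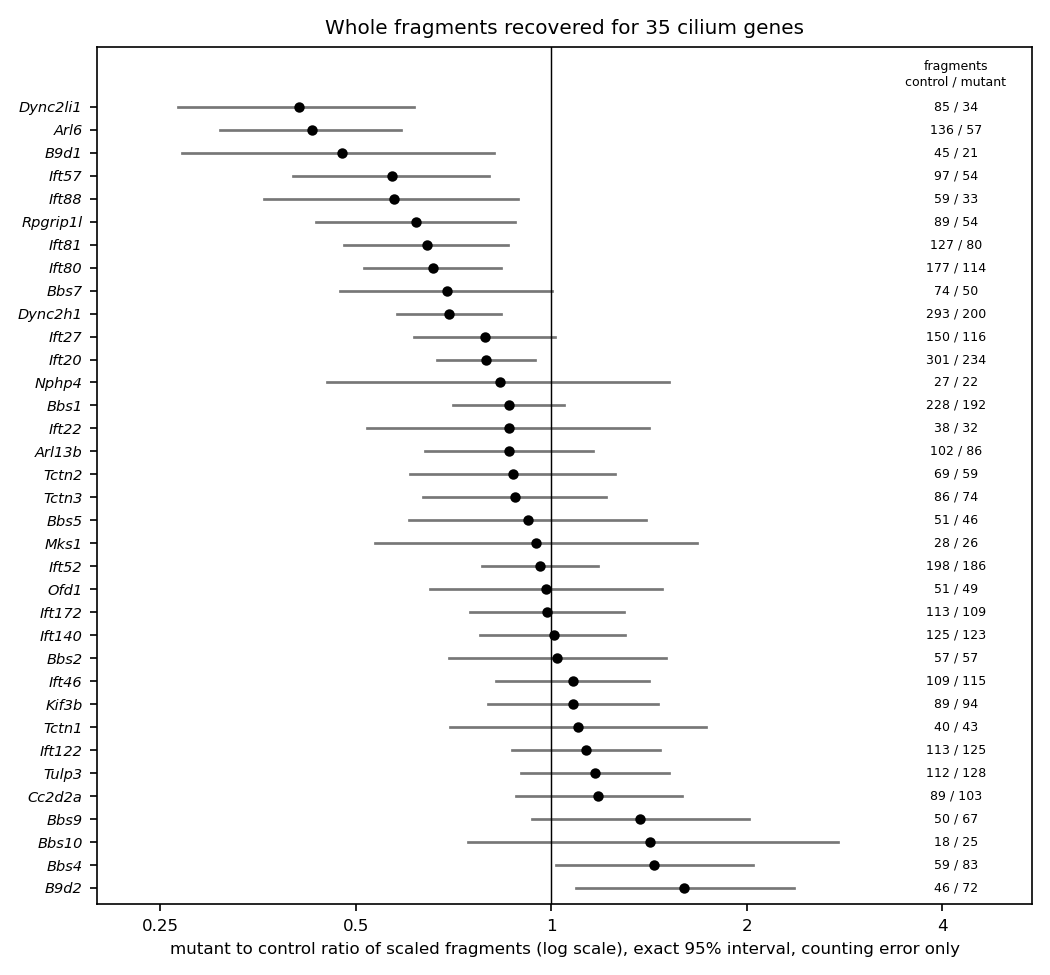
Ratio of scaled fragments, mutant to control, on a log axis for 35 of the cilium genes with recovered fragments, with exact 95% intervals that cover counting error only and the summed fragments of each group at the right. Intervals of 10 of these genes lie under 1, those of 2 genes (B9d2 and Bbs4) lie above 1, and 23 include 1. The share over all genes was not computed.

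Of the 36 ratios, 11 had an exact interval under 1 and 2 an interval above 1, while in the test that used the spread between libraries none of the 44 genes passed. Such ratios were not computed over all genes, so these counts have no background share beside them. The intervals also leave out the variance beyond counting, whose median within a group was 2.08 times the counting variance in controls and 1.75 times in mutants. Dync2li1 had the lowest ratio, 0.409 (exact 95% interval from 0.266 to 0.615), and its controls varied 11.5 times as much as counting would give. B9d1 varied by 0.892 times the counting variance in controls and by 0.866 times in mutants.

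Lists of ciliary genes whose symbols the choice did not match held 84 genes, of which 83 were in the files and 79 were tested. None passed the test, and 12 had an unadjusted p below 0.05 (11 lower and 1 higher in mutants), which is 15.2% beside 14.1% of all genes tested, a share near that background. In 55 of the 79 the log2 fold change was negative (69.6%, against 49.9% of all genes tested), with -0.15 as the median. Of 13 further transition zone genes 10 were negative, with a median of -0.38. Ahi1, the Joubert syndrome protein jouberin of the transition zone, measured 10.8, 10.9 and 11.5 FPKM in the fl/fl libraries, against 4.86, 6.54 and 7.09 FPKM in mutants, without overlap (log2 fold change -0.77 ± 0.23, limma adjusted p = 0.155), and Tmem138 measured 11.9 to 14.9 and 8.46 to 9.98 FPKM. Of 13 basal body genes 11 were negative, with Ccp110, the cap protein of the mother centriole, at 6.97 to 9.34 and 1.89 to 5.67 FPKM (-1.07 ± 0.34 in log2 fold change, limma adjusted p = 0.183) and Odf2 at 12.2 to 14.2 and 7.81 to 9.82 FPKM.

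Among the BBSome genes outside the choice, the chaperonin-like Mkks, which works with Bbs10 and Bbs12, was the 1 gene higher at an unadjusted p below 0.05, at 6.92, 9.31 and 9.04 FPKM in the fl/fl libraries, against 14.8, 11.7 and 11.7 FPKM in mutants (log2 fold change 0.54 ± 0.22, limma adjusted p = 0.319). The BBSome subunit Ttc8 measured 10.1 to 11.5 and 5.07 to 10.8 FPKM. Of the IFT and motor genes outside the choice, the dynein light chain Dynll1, which also serves other complexes, measured 155 to 186 FPKM in controls and 97.8 to 136 FPKM in mutants (log2 fold change -0.46 ± 0.19, limma adjusted p = 0.323). Hspb11, Ttc30a1, Wdr35, Wdr19 and Tctex1d2 had log2 fold changes from -0.60 to 0.36 and adjusted p from 0.435 to 0.811. Of the genes of ciliary membrane trafficking, Arl3 and Pde6d, which release and carry lipidated cargo, had log2 fold changes of -0.51 ± 0.25 and 0.34 ± 0.18 (limma adjusted p of 0.418 and 0.465).

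Among 8 genes tied to cilium disassembly 5 were negative. Aurka, the kinase that starts disassembly and is also a mitotic kinase, measured 16.9 to 20.3 and 9.08 to 15.1 FPKM (-0.68 ± 0.24 in log2 fold change, limma adjusted p = 0.243).

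Markers of some other cells moved with the groups beside these values. The summed level of 24 skeletal muscle markers was 5216 to 12890 FPKM in controls and 20840 to 37480 FPKM in mutants. The log2 fold change was positive for 22 of the 24, and 9 rose past the threshold. The summed level of 18 endothelial markers was 158.9 to 249.1 FPKM in controls and 409.5 to 470.8 FPKM in mutants. All 18 were positive, and 3 rose past the threshold. The 12 measured chondrocyte markers summed to 413 to 547 FPKM in controls and 217 to 261 FPKM in mutants, and 5 fell past the threshold. The 20 cell cycle markers summed to 533 to 592 and 232 to 397 FPKM. All 20 were negative, and 4 fell past the threshold. This threshold was a limma adjusted p below 0.05 in each case, where 0.775% of all genes tested rose and 0.465% fell. Of all genes tested 49.9% were negative. The chondrocyte marker Comp had a positive log2 fold change (1.56, limma adjusted p = 0.173), and the other 11 were negative. Of 10 fibroblast and perichondrium markers 5 were positive and 5 negative (median 0.0137), and 1 passed in each direction. None of the 9 tested macrophage markers and none of the 7 erythroid markers passed. With the mean of the muscle markers as a covariate, the median log2 fold change of the 44 cilium genes was -0.31, and none passed. The muscle mean did not overlap between the groups, so this fit cannot separate it from genotype. With Xist as a covariate the median log2 fold change of the cilium genes was -0.425, and none passed. With controls 1 and 2 left out this median was -0.44. The part of the endothelial, chondrocyte and cell cycle markers was not tested. Of 20 markers of motile cilia 18 were in the files and 14 were tested. Foxj1, the master regulator of motile cilia, was not among those tested and was listed at 0 in 5 libraries and at 0.294 FPKM in control 1. Ccno and Tekt4 were at 0 in 2 and 3 libraries. Other markers on the list were above 0 in every library, among them Mcidas (4.87 to 10.1 FPKM), Rsph9 (4.75 to 9.48 FPKM) and Rsph4a (4.21 to 6.28 FPKM). The 14 tested markers had mean levels from 1.03 to 254 FPKM with a median of 2.58 FPKM. The highest was Tppp3, at 185 to 349 FPKM over the 6 libraries, and the next was Mcidas, at a mean of 7.04 FPKM. None of the 14 passed the test, with 0 at an unadjusted p below 0.05.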

How the data were processed

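Each of the 6 libraries was placed in its group by its label. The labels' protocols name a full-length cDNA kit (SMART-Seq HT) followed by Nextera library preparation, which keeps no strand. The deposited values name no unit in the file headers and were read as FPKM made by the authors with Cufflinks. The submitters' processing notes name Cufflinks 2.2.1, SAMtools 0.1.19, TopHat2 2.0.13, Bowtie2 2.2.3 and mm10. Neither settings nor the annotation used could be taken from these sources.

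The test was limma 3.58.1 (R 4.3.3, trended and robust moderation, group as the only term) on log2(FPKM + 1) for the 18715 genes at or above 1 FPKM in 3 or more libraries, with Benjamini-Hochberg adjustment over all of them and a threshold of 0.05. The procedure was tested on simulated data. The members and lists were chosen with earlier results of these data known. Values in every library are given for the 10 members with the smallest p and the 5 with the highest mean; of each other list the 2 genes with the smallest p are named, and all RFX genes. Rpgrip1l, Dync2h1, Ift88, Bbs4 and Bbs9 and the pair B9d1 and B9d2 were singled out after their values were seen. Some genes counted here are not reported by name or drawn.

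Relative scaling totals were the most frequent FPKM ratios between libraries. Fragments were the smallest whole numbers, up to 200, fitting all 6 values within 0.02 of a fragment, kept where an annotated transcript (GENCODE M21) implied a total of 800000 to 1600000 in control 1; these limits were set after the data were seen, and larger multiples cannot be told apart. Ratio intervals are exact binomial ones. Promoters came from RefSeq.

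Alternatives were another pseudocount (0.1), quantile normalization or median scaling, a stricter filter (5 FPKM) or none, ordinary in place of robust moderation, a replicate block, Xist or the muscle marker mean as covariate, and libraries left out, either singly or controls 1 and 2 together.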

Additional observations from a re-analysis of the deposited data

How the results depend on the processing

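No cilium gene and no other ciliary gene passed in any of the 16 alternatives. The lowest adjusted p of a cilium gene ran over them from 0.0693 (Arl6, filter at 5 FPKM) to 0.664, and 23 (of the 29 genes left at 5 FPKM) to 35 genes had a negative log2 fold change. Ihh kept its direction where it was tested. The number of all genes called, 232, became 133 with no filter, 440 at 5 FPKM, 411 after quantile normalization, 2 with the Xist covariate, 3 with the muscle covariate and 5 with controls 1 and 2 left out, where the lone control is taken to scatter like the mutants. It was 13 without control 1 and 414 without mutant 3, the extremes with 1 library left out. With the replicate block it was 2, with 0 cilium genes called. Deviations of same-numbered libraries correlated at 0.00628, -0.0162 and -0.00909, which gives no sign that the numbers pair the samples. Values near 0 in libraries of this depth cannot exclude a pairing. Of 68 named genes, 37 kept the sign of their log2 fold change throughout. With the Xist covariate the sign changed in Bbs1 (0.1022), Bbs12 (-0.2953), Bbs2 (0.2469), Bbs9 (-0.04935), Cc2d2a (-0.154), Ift172 (0.2886), Ift46 (-0.04104), Kif3a (0.1112), Kif3b (-0.003017), Nphp4 (0.3355), Ofd1 (-0.126), Rfx1 (-0.1307), Tctn1 (-0.2125). With the muscle covariate the sign changed in Bbs1 (0.006888), Bbs2 (0.695), Cc2d2a (-0.9418), Ift122 (-0.2614), Ift172 (0.6477), Kif3a (0.02338), Nphp4 (0.8923), Rfx1 (-0.1646), Rfx8 (-0.008314), Tctex1d2 (0.4746), Tctn1 (-0.6978), Tctn3 (0.2799), Ttc8 (0.005045), Wdr35 (0.3838). With controls 1 and 2 left out the sign changed in Bbs1 (0.1294), Bbs12 (-0.3525), Bbs2 (0.304), Cc2d2a (-0.1805), Ift172 (0.2967), Ift46 (-0.0165), Ift52 (0.004176), Kif3a (0.1089), Kif3b (-0.01895), Nphp4 (0.3933), Ofd1 (-0.1496), Rfx1 (-0.1484), Tctn1 (-0.2384). Ofd1, at 0.0043, became -0.008612 with median scaling, -6.813e-05 with pseudocount 0.1, -0.0119 with quantile normalization. With 1 library left out it changed in Arl13b (-0.3483 to 0.077), Bbs1 (-0.3508 to 0.07419), Bbs10 (-0.03592 to 0.459), Bbs12 (-0.1697 to 0.5098), Bbs2 (-0.4317 to 0.2876), Bbs5 (-0.212 to 0.1826), Bbs9 (-0.2099 to 0.8739), Cc2d2a (-0.002901 to 0.4999), Ift122 (-0.003228 to 0.3257), Ift140 (-0.3308 to 0.2357), Ift172 (-0.2206 to 0.139), Ift22 (-0.5388 to 0.1661), Ift46 (-0.06625 to 0.2818), Ift52 (-0.2331 to 0.03704), Kif3b (-0.01317 to 0.2614), Mks1 (-0.1605 to 0.05275), Nphp4 (-0.496 to 0.074), Ofd1 (-0.1443 to 0.1991), Rfx2 (-0.06929 to 0.4753), Rfx3 (-0.1709 to 0.1943), Rfx7 (-0.2581 to 0.115), Tctn1 (-0.02931 to 0.3783), Tctn2 (-0.4157 to 0.1151), Tctn3 (-0.4088 to 0.07841), Wdr19 (-0.01291 to 0.6684). The cause was not tested. For the 36 cilium genes with recovered fragments, counting intervals of 23 fragment ratios include 1.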
